A study of Mus musculus with 30 samples.

Results

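Lipid droplet proteins were followed in mouse liver through 10 genes: *Cidea*, *Cideb*, *Cidec*, *Plin2*, *Plin4*, *Plin5*, *Fitm1*, *Fitm2*, *G0s2* and *Pnpla2*. The genes were listed by name, and each was read from the probe set that carries its symbol alone and has the highest mean over 30 livers. Of these, 9 of 10 were measured, out of 22180 genes with such a probe set. *Cideb* had only a probe set that it shares with another gene and was left out.

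The study asked which changes of obesity persist after weight loss. All mice were male wild type C57BL6/J, and livers were taken at 35 weeks of age, 6 per group, with 1 Affymetrix Mouse Gene ST array per liver. Lean mice received control diet (10.5% of energy from fat) for 27 weeks, and obese mice received HFD (58% of energy from fat, high in sucrose) for 27 weeks. Formerly obese mice received HFD for 20 weeks and then control diet for 7 weeks. Lean-HFD and formerly obese-HFD mice had the same histories as lean and formerly obese mice and then 48 h of HFD. Obesity was thus induced by diet alone, in a single strain and sex, and there was no genetic change in any group.

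Hepatocytes store triglyceride in droplets that form at the endoplasmic reticulum and carry a coat of proteins. FITM proteins help newly made triglyceride to bud into droplets, perilipins coat the surface and control access of lipases, and CIDE proteins join droplets and transfer lipid from smaller to larger ones. *Pnpla2* encodes adipose triglyceride lipase (ATGL), which starts the breakdown of stored triglyceride, and *G0s2* encodes an inhibitor of that lipase. *Cidec* and *Cidea*, which are typical of white and brown adipocytes, are known to rise in fatty liver.

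The promoter windows of the members whose levels differed most between groups, and of *Plin2*, are shown because these genes moved or varied together in the data below. RefSeq windows (GRCm38.p6, 250 bases before to 50 after a gene start) were matched for 8 of 9 measured members, and *Cidea* was not matched. *Cidec* has 2 annotated starts, both on the minus strand, which a single probe set value does not tell apart. The windows lie at chr6:113435711-113436010 and chr6:113434715-113435014 for *Cidec*, chr17:56109733-56110032 (minus strand) for *Plin4*, chr14:55575424-55575723 (plus strand) for *Fitm1*, chr1:193273139-193273438 (minus strand) for *G0s2* and chr4:86670010-86670309 (minus strand) for *Plin2*. Capitals mark a match, on either strand, to the nuclear receptor half-site AGGTCA, the E-box CACGTG, the TATA box TATAAA or the CRE half-site TGACGT.
Cidec first start: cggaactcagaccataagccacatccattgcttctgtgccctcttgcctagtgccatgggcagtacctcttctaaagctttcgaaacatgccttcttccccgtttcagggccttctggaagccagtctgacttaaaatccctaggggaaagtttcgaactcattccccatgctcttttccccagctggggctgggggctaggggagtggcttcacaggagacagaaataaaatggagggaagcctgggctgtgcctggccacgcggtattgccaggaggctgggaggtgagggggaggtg
Cidec second start: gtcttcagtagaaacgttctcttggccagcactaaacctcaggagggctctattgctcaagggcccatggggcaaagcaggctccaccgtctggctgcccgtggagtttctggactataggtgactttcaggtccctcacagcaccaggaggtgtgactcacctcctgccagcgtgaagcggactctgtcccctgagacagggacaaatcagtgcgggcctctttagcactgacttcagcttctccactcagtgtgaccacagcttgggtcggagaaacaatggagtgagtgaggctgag
Plin4: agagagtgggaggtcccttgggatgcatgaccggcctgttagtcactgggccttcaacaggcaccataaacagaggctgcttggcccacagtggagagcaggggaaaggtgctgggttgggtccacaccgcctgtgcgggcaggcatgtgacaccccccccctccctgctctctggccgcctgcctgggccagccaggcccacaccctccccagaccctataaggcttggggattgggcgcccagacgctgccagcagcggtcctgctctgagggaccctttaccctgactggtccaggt
Fitm1: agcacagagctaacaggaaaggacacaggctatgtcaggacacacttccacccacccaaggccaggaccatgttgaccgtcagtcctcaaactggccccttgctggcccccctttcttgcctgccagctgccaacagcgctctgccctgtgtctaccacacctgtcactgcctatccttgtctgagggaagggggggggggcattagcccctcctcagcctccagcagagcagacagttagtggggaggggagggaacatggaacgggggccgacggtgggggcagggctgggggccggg
G0s2: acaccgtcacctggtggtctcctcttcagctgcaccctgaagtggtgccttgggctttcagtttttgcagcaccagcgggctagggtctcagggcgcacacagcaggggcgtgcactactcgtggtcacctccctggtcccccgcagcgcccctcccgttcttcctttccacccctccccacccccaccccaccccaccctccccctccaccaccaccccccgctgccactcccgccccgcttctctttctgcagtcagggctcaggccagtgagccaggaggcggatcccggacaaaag
Plin2: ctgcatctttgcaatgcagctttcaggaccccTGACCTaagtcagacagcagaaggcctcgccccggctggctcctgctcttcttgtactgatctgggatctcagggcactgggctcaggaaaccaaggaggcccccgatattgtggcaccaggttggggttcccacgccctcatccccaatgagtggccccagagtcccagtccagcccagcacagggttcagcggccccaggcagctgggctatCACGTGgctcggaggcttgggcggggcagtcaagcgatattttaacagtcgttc

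Of the windows printed, only that of *Plin2* held any of these motifs, an E-box whose first base lies 4 bases before the start and a half-site in reverse 218 bases before it. An E-box was present in 7.15% and the half-site in 16.3% of all 32851 windows of this length. Among the windows not printed, both windows of *Plin5* held the half-site and those of *Fitm2* and *Pnpla2* held none of the motifs. A direct repeat of the half-site with 1 base between, the form bound by PPARs, was in none of the 10 windows of measured members and in 0.0396% of all windows. Only exact matches were counted. For so rare a sequence, its absence from 10 windows does not tell whether these genes have PPAR sites.

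The values below are linear RMA signals, that is, 2 to the power of the deposited log2 value. They compare a gene between groups, and do not rank genes against each other. A member passed the criteria if its limma *P* was under 0.01, its group averages differed more than 1.2-fold up or down, and the higher average exceeded 8. All *P* values are two-sided. The precision is limited by 6 arrays per group, and the smallest *P* that an exact permutation test of 6 vs 6 livers can give is 0.00216. The labelled tissue was borne out by the hepatocyte markers, whose summed signal was 22632 to 25319 in all livers.

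In obese vs lean livers, 6 of 9 members were past the criteria, and all 6 were higher in obese livers: *Cidec*, *Cidea*, *Plin4*, *Fitm1*, *G0s2* and *Fitm2*. Over all 41345 probe sets, 2.01% were past the criteria in either direction and 1.14% were higher. Among the 25989 probe sets with an average above 8, as all 9 members had, the share in either direction was 3.21%. The median log2 fold change of the 9 members was 0.79, against -0.01 for the probe sets whose average exceeded 8. The members, and the gene lists used below, were chosen with earlier results of these data known. The shares here and below therefore describe them and are not an independent test. An FDR of 10% was reached by 0.0895% of all probe sets and, among the members, by *Fitm1* alone.

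*Cidec*, the droplet fusion protein also called FSP27, had the largest log2 difference of the 9. In lean livers its signal had a lowest value of 16.7, a median of 55.99 and a highest value of 232.8. In obese livers these values were 224.7, 322.2 and 586.1. A single lean liver, replicate 1, reached into the obese range, so the groups overlapped. The averages were 375 ± 165 in obese and 91.1 ± 83.6 in lean livers (SD, *n*=6), a 4.11-fold ratio. On the log2 scale the difference was 2.46 ± 0.547 (SE), with an exact permutation *P* of 0.00649 and a limma *P* of 0.000585 (adjusted *P*=0.188).

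*Cidea*, a related fusion protein, was close to the array floor in most livers that were not obese. Its lowest, median and highest signals were 7.55, 8.15 and 30.5 in lean livers. In obese livers they were 8.96, 31.4 and 97.1. The obese group was thus wide, with replicate 1 at the level of the lean livers and replicates 2 and 6 far above the others. *Cidea* differed by 1.72 ± 0.540 (log2, SE; exact permutation *P*=0.0281, limma *P*=0.00706), with 5 of 6 obese livers above the lean average. This call depended on single livers, since without obese replicate 2, 3, 4 or 6, or without lean replicate 1, 2, 3, 4 or 6, the limma *P* was above 0.01.

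**Figure D1:**
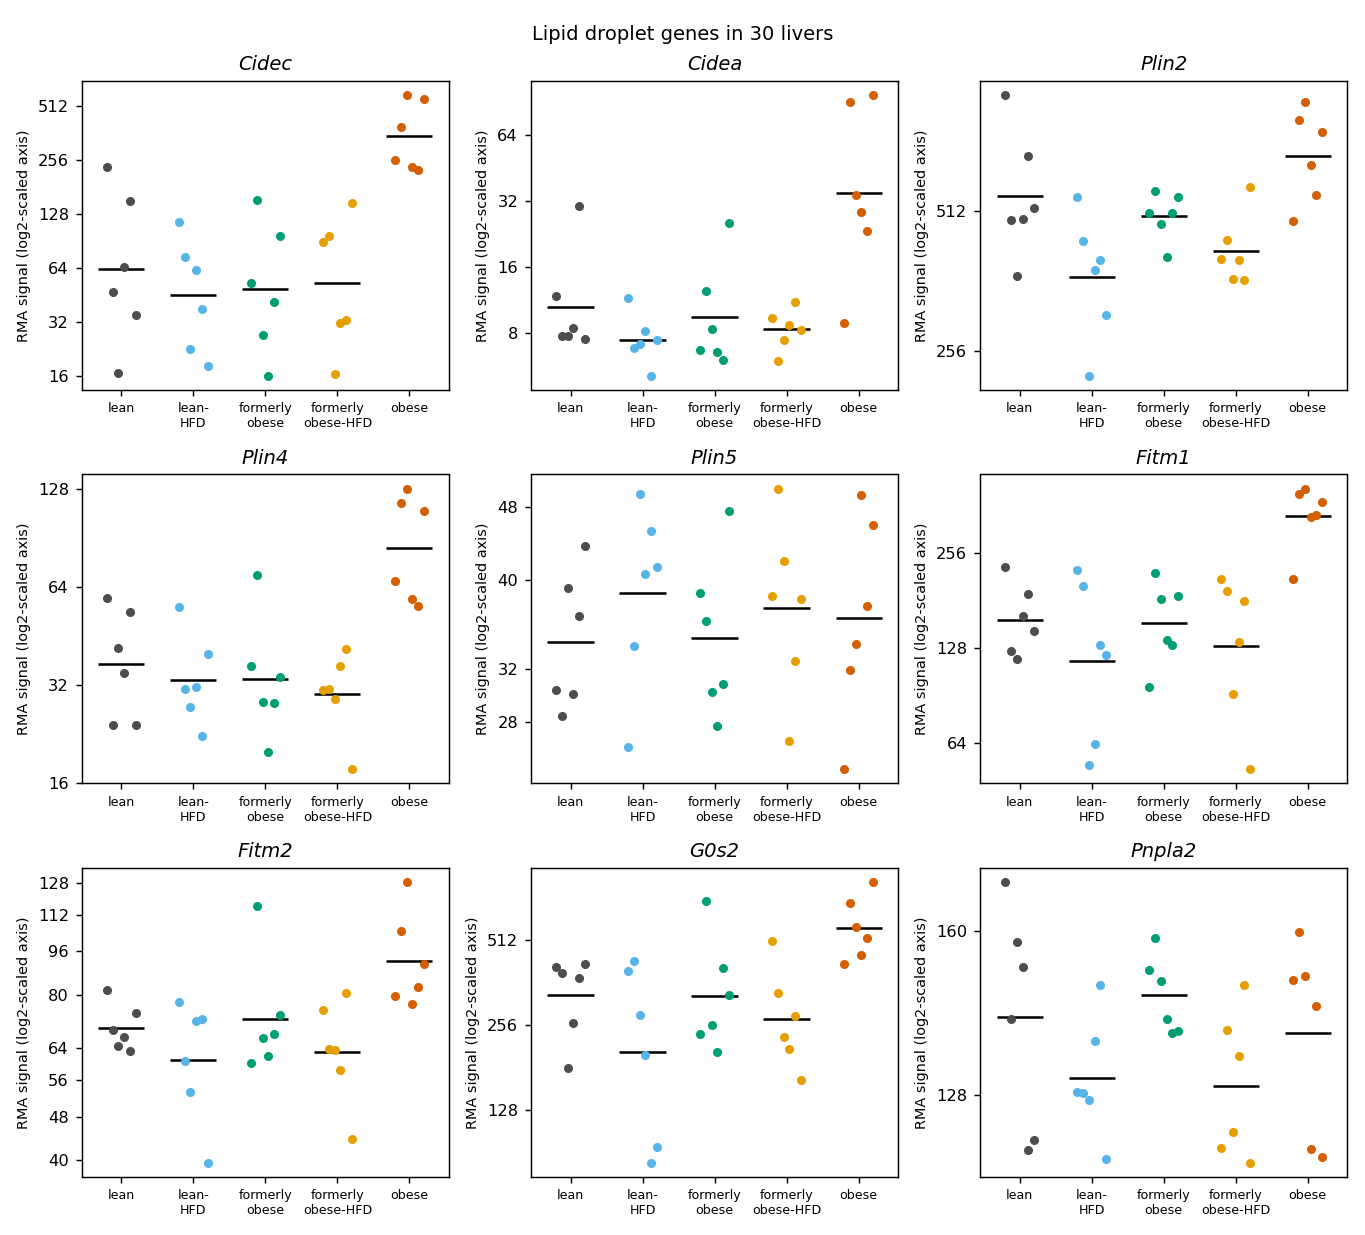
Signals of the 9 members in each of 30 livers (points, linear RMA signal on a log2-scaled axis) by group, with the geometric group mean as a bar. *Cidec*, *Plin4* and *Fitm1* were highest in the obese group, whereas the ranges of *Plin5* and *Pnpla2* overlapped among all 5 groups.

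Of the 3 perilipins measured, 1 passed. *Plin4*, a perilipin best known from adipocytes and muscle, had signals of 24.1 to 59.3 (median 38.1) in lean livers. In obese livers it lay between 55.8 and 129 (median 88.4). The highest lean liver lay above the lowest obese livers, and 6 of 6 obese livers were above the lean average. *Plin4* differed by 1.18 ± 0.283 (log2, SE; exact permutation *P*=0.00649, limma *P*=0.00106).

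*Plin2*, the main constitutive droplet coat of hepatocytes, did not pass. Its signals were 371 to 907 (median 505) in lean and 486 to 879 (median 699.7) in obese livers. The ranges lay over each other for most of their length, and the highest value belonged to a lean liver. The log2 difference was 0.28 with a 95% interval of -0.16 to 0.73 (exact permutation *P*=0.238). *Plin5*, which links droplets to mitochondria in oxidative cells, differed by 0.09 (-0.28 to 0.45, exact permutation *P*=0.641).

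Both FITM genes were higher in obese livers. *Fitm1*, known mainly from skeletal muscle, had signals of 118 to 231 (median 153) in lean livers. In obese livers it had signals of 212 to 410 (median 355). Obese replicate 1 was the only obese liver within the lean range. The difference was 1.09 ± 0.189 (log2, SE; exact permutation *P*=0.00433, limma *P*=5.76e-05, adjusted *P*=0.0849). Of 5 skeletal muscle markers, limma called 0, against 2.01% of all probe sets, with 1 of 5 at an unadjusted *P* under 0.05, against 7.79%, and their summed signals were 41.5 to 49.4 in lean and 36.0 to 47.3 in obese livers. A second probe set of *Fitm1* was also higher, by 0.36 (SE 0.119), and did not pass. In the comparisons described further on, its differences were smaller too, at -0.46 in formerly obese vs obese livers, which passed, and at 0.37 in obese vs lean-HFD and 0.33 in obese vs formerly obese-HFD livers, which did not.

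*Fitm2*, the widely expressed family member, changed less, from signals of 63.2 to 81.7 (median 68.1) in lean livers to 77.0 to 128 (median 86.8) in obese livers. This was a difference of 0.41 ± 0.127 (log2, SE; exact permutation *P*=0.00649, limma *P*=0.00697). Its call was lost in several fits with a single liver left out, for example without obese replicate 3, which had the highest value and without which the difference was 0.31.

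*G0s2*, the inhibitor of ATGL, had signals of 181 to 423 (median 385) in lean livers and 421 to 825 (median 547) in obese livers. The ranges met at their ends, and 6 of 6 obese livers were above the lean average. It differed by 0.79 ± 0.225 (log2, SE; exact permutation *P*=0.00433, limma *P*=0.00375), and its second probe set by 0.92 (SE 0.210, adjusted limma *P*=0.197), which also passed. With all 30 livers in a single fit, the first probe set was no longer past the criteria (limma adjusted *P*=0.571). *Pnpla2*, the target of G0S2, had signals of 119 to 171 (median 147) in lean and 118 to 160 (median 147) in obese livers. Its log2 difference was -0.03, with a 95% interval of -0.29 to 0.22.

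Adipocytes also express droplet genes, and their markers are given beside these results. Of 7 measured adipocyte markers, 1 was past the criteria in obese vs lean livers, against 2.01% of all probe sets. This was *Fabp4*, which macrophages and endothelial cells also express, at 309 ± 130 vs 147 ± 81.9. The summed signal of the list was 134 to 356 (median 183) in lean and 229 to 580 (median 347) in obese livers. *Fabp4* made up most of these sums, which averaged 206 in lean and 369 in obese livers. Of the 7 markers, 4 were higher and 3 lower in obese livers, with a median log2 fold change of 0.06. The defining markers *Adipoq*, *Lep* and *Ucp1* were near the array floor, with *Adipoq* averaging 7.30 ± 0.731 in lean and 7.15 ± 1.11 in obese livers and its highest value, 10.5, in a formerly obese-HFD liver. Their part in the results was not tested. In whole liver RNA, a change in the number of cells of a type and a change in RNA per cell cannot be told apart.

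Formerly obese livers addressed whether droplet genes stay high after weight loss. In formerly obese vs obese livers, 4 of 9 members were past the criteria and all 4 were lower: *Cidec*, *Cidea*, *Plin4* and *Fitm1*. Over all probe sets, 2.17% were past the criteria, and 1.03% were lower. Among those with an average above 8, 3.51% were past the criteria in either direction. *Cidec* and *Fitm1* also reached an FDR of 10%, with adjusted *P* values from limma of 0.0597 and 0.0785, which 0.189% of all probe sets did. The obese livers are shared with the comparison above, so the 2 sets of values are not independent. Markers of other cells moved in the same comparison. Of 8 Kupffer cell and macrophage markers, 8 were higher in formerly obese livers and 2 were past the criteria, *Timd4* and *Marco*, with sums of 714 to 1396 (median 1000.4) against 555 to 949 (median 809) in obese livers. Of 7 adipocyte markers, 1 was past the criteria, *Fabp4*, which was lower, and the sums were 200.2 to 270.3 (median 225) in formerly obese livers, against the obese sums given above. The part of these cells in the differences was not tested.

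*Cidec* had a lowest signal of 15.99, a median of 46.8 and a highest signal of 153.3 in formerly obese livers. All 6 were below the lowest obese liver, so the groups did not overlap, and *Cidec* was the only member of which this was true, against 0.389% of all probe sets in that direction. Its difference was -2.82 ± 0.482 (log2, SE; exact permutation *P*=0.00216, limma *P*=5.35e-05).

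*Plin4* lay between 19.9 and 69.99 (median 31.1) in formerly obese livers and differed by -1.34 ± 0.294 (log2, SE; exact permutation *P*=0.00866, limma *P*=0.000524). *Fitm1* lay between 96.5 and 221 (median 159), and differed by -1.13 ± 0.206 (exact permutation *P*=0.00433, limma *P*=0.0001). *Cidea* lay between 6.05 and 25.5 (median 7.58), and differed by -1.88 ± 0.542 (exact permutation *P*=0.0173, limma *P*=0.00407). For each of these 3 genes, 6 of 6 formerly obese livers were below the obese average, while the ranges overlapped. The *Cidea* call was lost without formerly obese replicate 4 or 5, or without obese replicate 2 or 6.

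*G0s2* and *Plin2* narrowly missed the criteria. *G0s2* lay between 206 and 706 (median 293) in formerly obese livers, with a log2 difference of -0.80 (SE 0.272, exact permutation *P*=0.0281, limma *P*=0.0113). The highest value belonged to replicate 2, which lay above 5 of 6 obese livers, and without it the difference was -1.02 and past the criteria, as it also was without obese replicate 1, at -0.88. *Plin2* lay between 408 and 565 (median 506), and differed by -0.43 (SE 0.143, exact permutation *P*=0.0260, limma *P*=0.0102). Its 6 formerly obese livers were all below the obese average, and it was past the criteria without obese replicate 1 or 5, with array weights, and with an intensity trend and robust prior in limma. *Fitm2* differed by -0.35 (exact permutation *P*=0.0866) and was past the criteria, at -0.49, without formerly obese replicate 2, *Plin5* by -0.07 and *Pnpla2* by 0.08.

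In formerly obese vs lean livers, limma called 0 of 9 members, against 0.905% of all probe sets, and 0 of 9 reached an unadjusted *P* under 0.05, as 5.87% of all probe sets did. Of the 8 Kupffer cell and macrophage markers, 4 were past the criteria in this comparison, all higher. The 95% intervals give the differences that 6 livers per group leave possible. For *Cidec* the log2 difference was -0.36, with an interval of -1.78 to 1.05. For *Plin2* it was -0.14 (-0.53 to 0.24), and for *Fitm1* -0.04 (-0.49 to 0.42). The narrowest interval was that of *Pnpla2*, at 0.04 (-0.17 to 0.26).

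**Figure D2:**
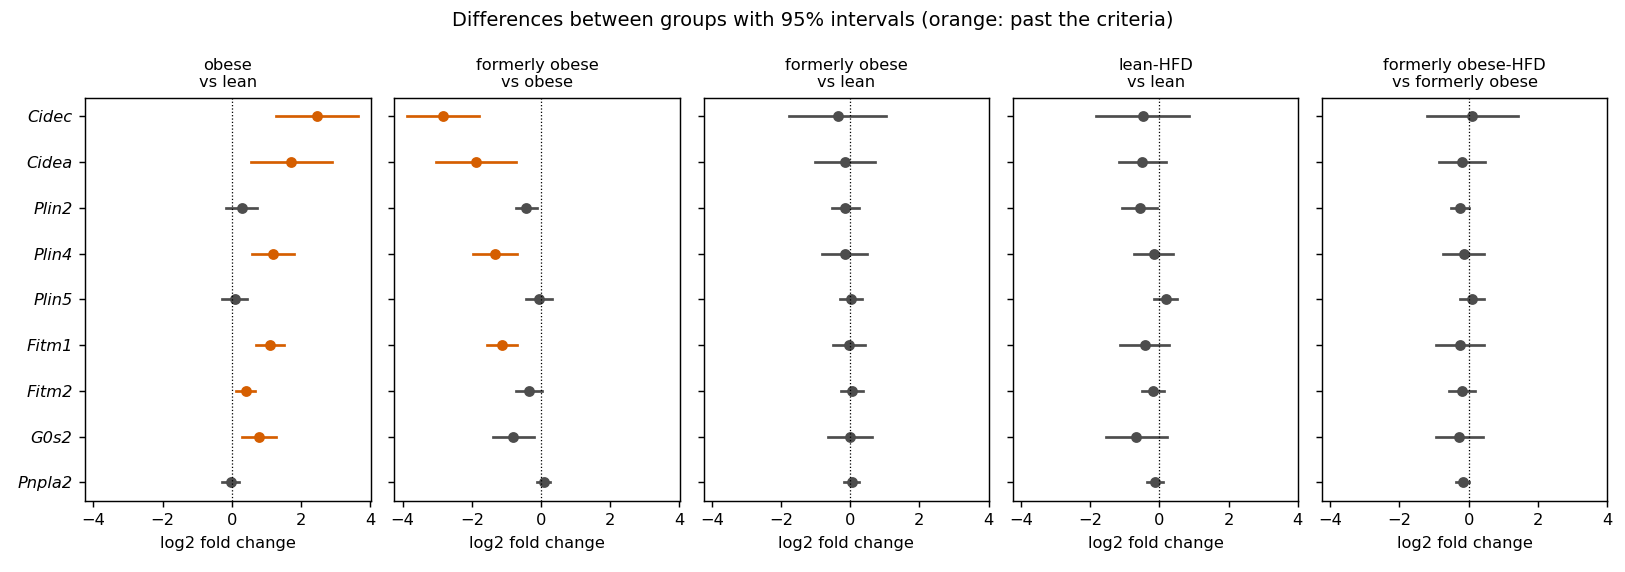
Log2 fold changes of the 9 members in 5 comparisons, as points with 95% intervals from limma, with orange for members past the criteria. The 6 orange points of obese vs lean lie at 0.41 to 2.46, the 4 of formerly obese vs obese at -1.13 to -2.82, and the 3 other panels have none.

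Mice fed HFD for 48 h addressed whether droplet genes respond to this diet, high in fat and sucrose, within days. In lean-HFD vs lean livers, limma called 0 of 9 members, against 1.29% of all probe sets, and 1 of 9 reached an unadjusted *P* under 0.05, against 6.43%. That gene was *Plin2*, with signals of 227 to 548 (median 392) in lean-HFD livers. All 6 lay below the lean average, and the log2 difference was -0.58 (SE 0.230, exact permutation *P*=0.0476, limma *P*=0.0264, adjusted *P*=0.702). The other differences ranged from -0.67 (*G0s2*) to 0.17 (*Plin5*), and *Cidec* differed by -0.49 (-1.82 to 0.85).

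The same 48 h was given to formerly obese mice. Limma called 0 of 9 members in formerly obese-HFD vs formerly obese livers, against 1.18% of all probe sets, and 1 of 9 reached an unadjusted *P* under 0.05, against 5.97%. That gene was *Pnpla2*, with signals of 117 to 149 (median 128) in formerly obese-HFD and 139 to 159 (median 146) in formerly obese livers, which came from different mice. Its log2 difference was -0.18 (SE 0.0822, exact permutation *P*=0.0281, limma *P*=0.0497). *Plin2* differed by -0.25 (-0.51 to 0.01, exact permutation *P*=0.0758), with 5 of 6 livers below the formerly obese average. The exception was formerly obese-HFD replicate 6, without which the difference was -0.34 and past the criteria (limma adjusted *P*=0.504), and *Pnpla2* differed by -0.15 without it. This liver had the highest marker sums of its group for stellate cells (2331, group median 1417), lipid-associated macrophages (317, median 120), cholangiocytes (81.8, median 52.0) and adipocytes (322, median 184), and their part in its values was not tested.

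The test of whether both histories responded differently to 48 h of HFD called 0 of 9 members, against 0.716% of all probe sets, with 0 of 9 at an unadjusted *P* under 0.05, against 5.2%. The smallest limma *P* was 0.240 (adjusted *P*=0.950), for *Plin2*, whose responses differed by 0.33 (-0.23 to 0.88). For *Cidec* the interval of the difference was -1.31 to 2.501, too wide to speak of like responses. In formerly obese-HFD vs lean-HFD livers, limma called 0 of 9 members, against 0.914% of all probe sets, with 0 of 9 at an unadjusted *P* under 0.05, against 5.48%.

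Chronic HFD was also compared with each short exposure. In obese vs lean-HFD livers, 7 of 9 members were past the criteria, and all were higher in obese livers, against 2.73% of probe sets in either direction and 1.4% higher. Among probe sets with an average above 8, the share in either direction was 4.39%. *Plin2* joined the 6 named above, with a log2 difference of 0.86 (SE 0.204, exact permutation *P*=0.00433, limma *P*=0.000995). The groups did not overlap for *Cidec*, which differed by 2.95 (limma adjusted *P*=0.0440), and *Plin4*, which differed by 1.35 (adjusted *P*=0.0693), as for 0.464% of all probe sets in that direction. These were also the 2 members at an FDR of 10%, which 0.353% of probe sets reached.

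In obese vs formerly obese-HFD livers, 7 of 9 members were past the criteria and higher, all but *Plin5* and *Pnpla2*, against 1.64% of probe sets in either direction and 1.04% higher. Among probe sets with an average above 8, the share in either direction was 2.62%. *Cidec* differed by 2.72 (SE 0.491), *Plin4* by 1.49 (SE 0.252) and *Fitm1* by 1.37 (SE 0.307), and for these 3 the groups did not overlap, against 0.336% of probe sets. *Plin2* differed by 0.68 (SE 0.159, exact permutation *P*=0.00649). At an FDR of 10%, limma called 0 of 9 (0.0193% of all probe sets), against 7 of 9 at an unadjusted *P* under 0.05 (6.48% of all probe sets), with limma adjusted *P* values of at least 0.140. Without formerly obese-HFD replicate 6, the 7 members were also past the criteria, with differences of 3.01 for *Cidec*, 1.33 for *Plin4* and 1.11 for *Fitm1*. Both comparisons use the same obese livers.

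**Figure D3:**
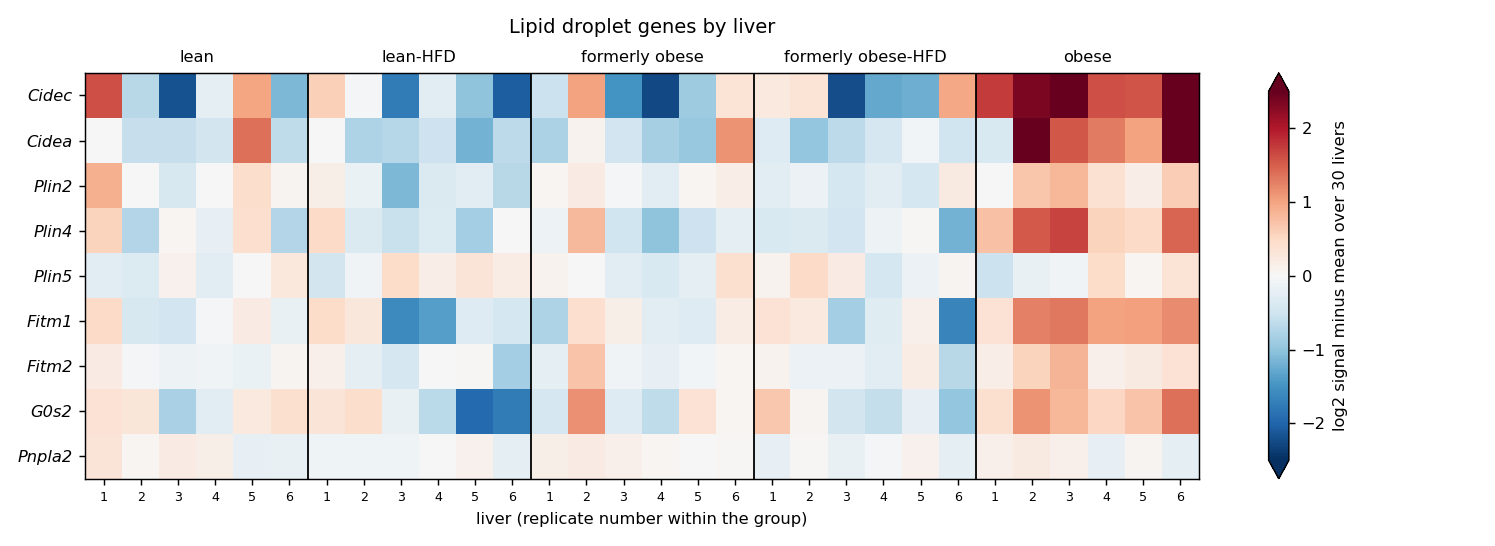
Each member's log2 signal minus its mean over the 30 livers, 1 column per liver in group order and 1 row per gene. Rows of *Cidec*, *Cidea*, *Plin4*, *Fitm1* and *G0s2* are mostly red in the obese livers, and rows of *Plin5* and *Pnpla2* stay pale throughout.

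*Cidec* had signals of 18.2 to 115 (median 50.1) in lean-HFD and 16.4 to 148 (median 61.1) in formerly obese-HFD livers. *Plin4* had 22.2 to 55.6 (median 31.3) and 17.6 to 41.2 (median 31.1) in the same order. All these livers were below the lowest obese liver for both genes, and the lean-HFD and formerly obese-HFD ranges overlapped for each gene.

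*Fitm1* had signals of 54.5 to 226 (median 127) in lean-HFD and 52.8 to 211 (median 157) in formerly obese-HFD livers. *G0s2* had 83.3 to 432 (median 240) and 163 to 509 (median 255). The lowest formerly obese-HFD values of both genes belonged to replicate 6, and the next lowest were 91.5 for *Fitm1* and 211 for *G0s2*. In lean-HFD livers the lowest *Fitm1* signals, 54.5 and 63.3, were those of replicates 3 and 4, and the lowest *G0s2* signals, 83.3 and 95.1, those of replicates 5 and 6. Neither gene passed the criteria after 48 h of HFD in either history. *Fitm2* had 39.6 to 77.6 and 43.8 to 80.5, and 60.1 to 116 in formerly obese livers. *Cidea* had 5.13 to 11.54 and 6.01 to 11.2, close to the array floor in all 12 livers given 48 h of HFD.

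Over the 5 groups, all members but *Plin5* and *Pnpla2* had their highest average in obese livers. How many of all probe sets did so was not counted, so this only describes the members. By mean log2 signal, *Cidec* followed the order obese, lean, formerly obese-HFD, formerly obese, lean-HFD. Its step from obese to lean exceeded the within-group SD (2.27 SD), whereas the 3 steps below it were 0.0878 to 0.198 SD. *Plin4*, *Fitm1*, *Cidea* and *G0s2* likewise had a large step below obese and no step further down with an exact permutation *P* under 0.437. *Plin2* fell more evenly, with its largest step, 1.19 SD, between formerly obese and formerly obese-HFD livers (exact permutation *P*=0.0758).

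*Plin5* and *Pnpla2* had the smallest spans between groups. The group averages of *Plin5* spanned 34.7 (lean) to 39.5 (lean-HFD), a ratio of 1.14, and those of *Pnpla2* 130 (formerly obese-HFD) to 147 (formerly obese), a ratio of 1.13. Single *Plin5* signals ran from 24.9 to 50.3 over the 30 livers, and in each group the range covered most of this span. The within-group SD was 0.31 on the log2 scale for *Plin5* and 0.15 for *Pnpla2*. Over single livers, *Pnpla2* spanned 1.47-fold and *Cidec* 36.7-fold.

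Some members also varied with *Cidec* among mice of the same group. With the group means removed, *Plin2* and *Cidec* had *r*=0.83 and rho=0.86 over the 30 livers (permutation *P*=1e-05, the smallest that 100000 shuffles can give, Benjamini-Hochberg adjusted *P*=8e-05 over 8 relations to *Cidec*). The relation was positive in 5 of 5 groups, with *r* between 0.82 and 0.95, and was 0.77 without the 2 livers of most extreme *Cidec*, lean replicates 1 and 3. *Plin2* thus followed *Cidec* from mouse to mouse within groups, although it was not past the criteria in obese vs lean livers.

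The other relations were looser. *G0s2* had *r*=0.54 (rho=0.48, permutation *P*=0.00443 and 0.0148, adjusted *P*=0.0155 and 0.0296), positive in 5 of 5 groups, and 0.49 without the 2 livers. *Plin4* had *r*=0.46 (rho=0.42, adjusted permutation *P*=0.0352 and 0.0444) and *Cidea* *r*=0.45 (rho=0.49, adjusted permutation *P*=0.0155 and 0.0216), each positive in 4 of 5 groups and negative in formerly obese-HFD livers, at -0.58 and -0.19. *Fitm2* had *r*=0.41 (rho=0.43, adjusted permutation *P*=0.0435 and 0.0357). *Fitm1* had *r*=0.38 (rho=0.51), with adjusted permutation *P* of 0.0767 for *r* and 0.0277 for rho. These 2 were likewise positive in 4 of 5 groups and negative in formerly obese-HFD livers, at -0.40 and -0.08. *Pnpla2* (*r*=0.05, rho=0.10, permutation *P*=0.810 and 0.636) and *Plin5* (*r*=-0.01, rho=-0.01, permutation *P*=0.941 and 0.943) had no relation with a permutation *P* under 0.05. In an alternative chosen after seeing the data, without formerly obese-HFD replicate 6, *r* over 29 livers was 0.81 for *Plin2*, 0.65 for *G0s2*, 0.62 for *Plin4*, 0.62 for *Fitm1*, 0.60 for *Fitm2* and 0.47 for *Cidea* (adjusted permutation *P* of at most 0.00711). That single liver thus lowered several of these relations. For *Fitm1*, whose rho was already at an adjusted permutation *P* under 0.05 with all livers, *r* was so only without it.

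**Figure D4:**
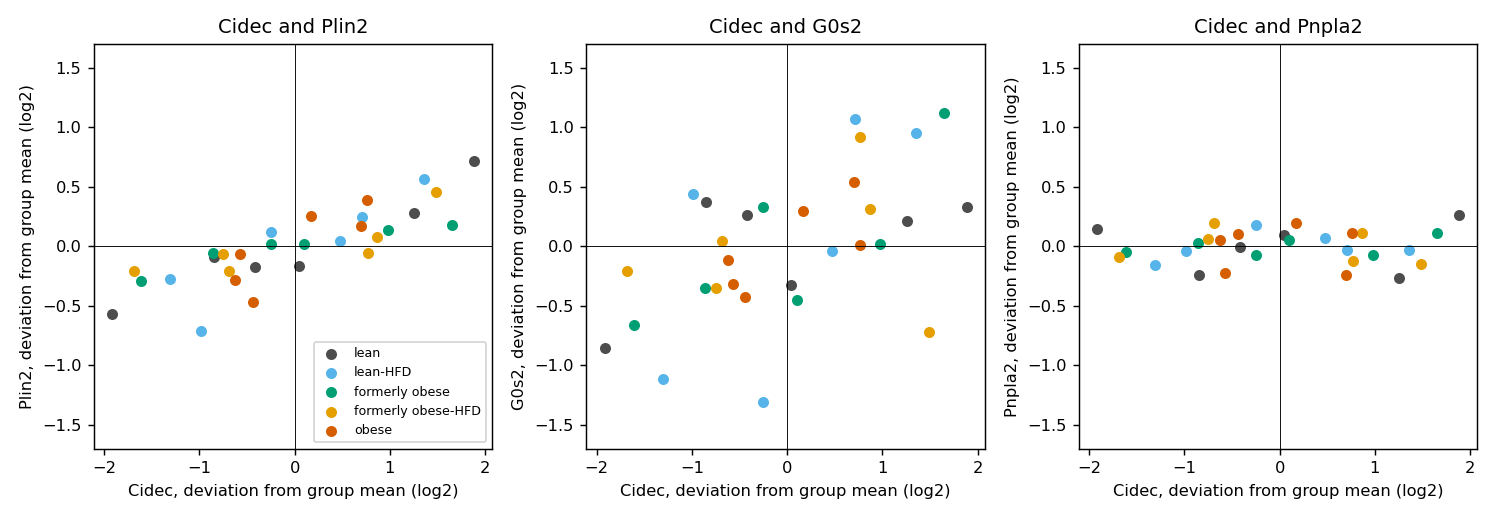
Deviation of *Plin2*, *G0s2* and *Pnpla2* from their group means (log2, vertical) against the deviation of *Cidec* (log2, horizontal) for 30 livers coloured by group. The points of *Plin2* rise with *Cidec* (*r*=0.83), those of *G0s2* rise with more scatter (*r*=0.54), and those of *Pnpla2* stay flat (*r*=0.05).

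As a description of how close this is, *r* with *Cidec* was at least that of *Plin2* for 8 of 27034 other probe sets above the average, *Plin2* included, and the median over these probe sets was 0.01. Named after their values were seen, and with no test because they were picked by *r*, the closest were *Lgals1* (0.96), which encodes the lectin galectin-1, *Cd36* (0.94), the fatty acid transporter, *Ermp1* (0.84) and *Pparg* (0.83), a nuclear receptor that drives fat storage genes. These points share the same 30 arrays and their normalisation.

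By the pattern of group averages, the closest to *Cidec* of 15135 genes outside the members was *Themis*, with a root mean square difference of 0.139 on the log2 scale over 5 groups, then *Sprr1a* (0.401), *Slc16a5* (0.449) and *Cyp2b13* (0.483). Of the members, which were kept out of that order, the nearest was *Cidea* (0.321), and the farthest was *Plin5* (1.11). The closest genes to *Plin2* were *Ttc3* (0.0211), *1700080G11Rik* (0.0615) and *Paqr7* (0.0654).

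Other genes of the droplet and of triglyceride turnover came from lists of 17 droplet, 14 lipolysis, 19 synthesis and 15 regulator genes, of which 16, 13, 17 and 14 were measured. Of the 16 other droplet genes, 0 were called by limma in obese vs lean livers, against 2.01% of all probe sets, with 2 of 16 at an unadjusted *P* under 0.05, against 7.79%, and their median log2 fold change was 0.03. *Plin1*, the adipocyte perilipin, differed by 0.10 (SE 0.194), and *Plin3*, which coats nascent droplets, by -0.17 (SE 0.170). In the other comparisons limma also called 0 of the 16, with 0 to 2 at an unadjusted *P* under 0.05, against 5.2% to 9.3% of all probe sets.

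Of 13 lipolysis genes, 1 rose and 1 fell in obese vs lean livers, against 1.14% and 0.878% of all probe sets. *Pnpla3*, a droplet lipase that is known to follow carbohydrate feeding, fell by 0.88 (SE 0.275, limma adjusted *P*=0.395), and *Ces1g*, a carboxylesterase, rose by 0.76 (SE 0.135, adjusted *P*=0.0927). After 48 h of HFD, 1 of 13 fell in lean-HFD vs lean livers, against 0.595% of all probe sets. In formerly obese-HFD vs formerly obese livers 2 of 13 fell, against 0.825%. None rose in either comparison. *Pnpla3* differed by -1.22 in the first (SE 0.295, limma adjusted *P*=0.435) and by -1.47 in the second (SE 0.281, adjusted *P*=0.237). In formerly obese vs obese livers, which share the obese group, 1 of 13 rose and 1 fell, against 1.15% and 1.03%. *Pnpla3* was higher there by 1.201 (SE 0.296). *Lipe*, which encodes hormone-sensitive lipase, differed by 0.10, *Mgll*, which encodes monoglyceride lipase, by 0.20 and *Abhd5*, the coactivator of ATGL, by -0.05 in obese vs lean livers, and none of these 3 passed.

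Of 17 synthesis genes, 3 rose in obese vs lean livers and 0 fell, against 1.14% and 0.878% of all probe sets. These were *Mogat1*, a monoacylglycerol acyltransferase (1.09, SE 0.308, limma adjusted *P*=0.346), *Gpat3*, which acylates glycerol-3-phosphate (0.60, SE 0.185, adjusted *P*=0.391), and *Agpat2*, which makes phosphatidic acid (0.38, SE 0.0835, adjusted *P*=0.183). In formerly obese vs obese livers, 3 of 17 fell and 0 rose, against 1.03% and 1.15% of all probe sets. *Mogat1*, *Gpat3* and *Agpat2* were lower there by 1.33, 0.59 and 0.51 on the log2 scale. They were named for their rise in the same obese livers, so these falls are not independent of it. In lean-HFD vs lean livers, 2 of 17 fell, against 0.595% of all probe sets, *Gpam* by 0.74 (SE 0.229) and *Acsl5* by 0.47 (SE 0.130).

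Of 14 regulators, 1 rose in obese vs lean livers and 0 fell, against 1.14% and 0.878% of all probe sets. This was *Pparg*, by 0.98 (SE 0.255, limma adjusted *P*=0.295). In formerly obese vs obese livers, 1 of 14 rose and 1 fell, against 1.15% and 1.03% of all probe sets. *Pparg* fell by 1.31 (SE 0.216, limma adjusted *P*=0.0511), and *Srebf1*, the regulator of fatty acid synthesis, rose by 0.53 (SE 0.153, adjusted *P*=0.308). Both comparisons use the same obese livers, so the 2 differences of *Pparg* are not independent.

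**Figure D5:**
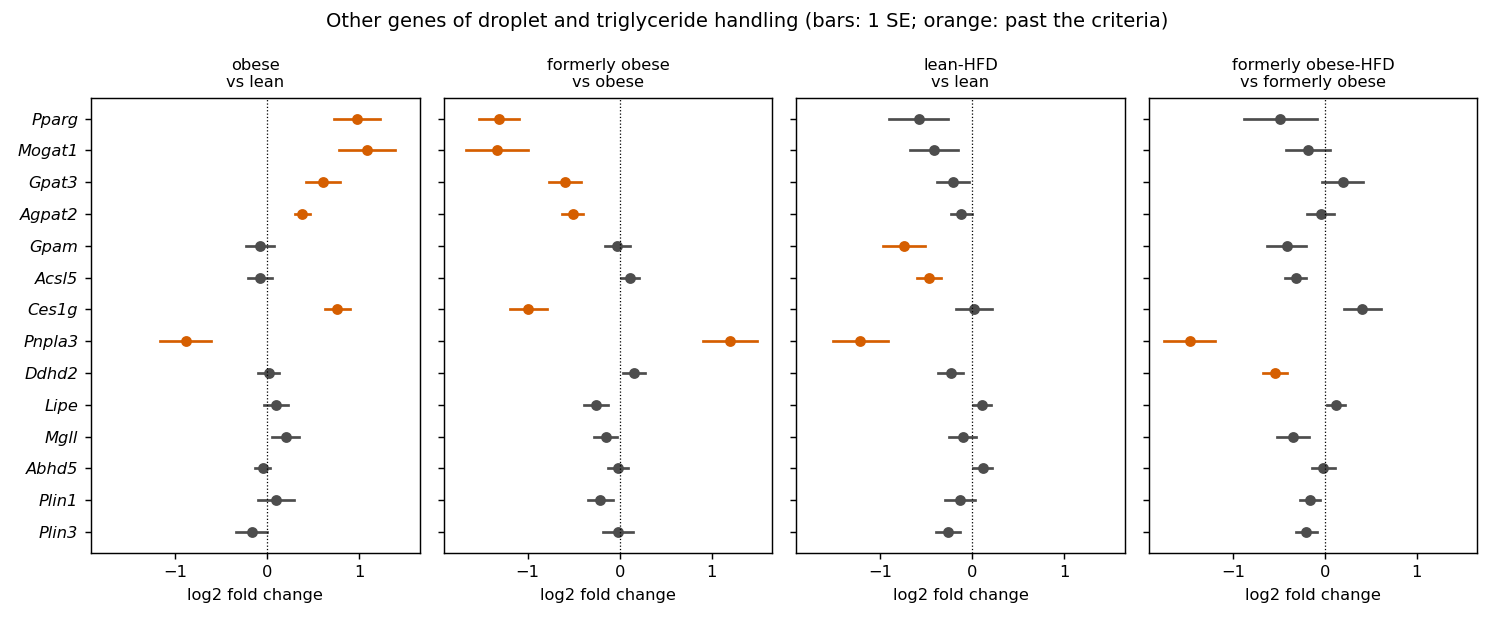
Log2 fold changes of 14 other genes of droplets and triglyceride turnover in 4 comparisons, as points with bars of 1 SE, with orange for genes past the criteria. *Pparg* and *Mogat1* lie to the right in obese vs lean and to the left in formerly obese vs obese livers, and *Pnpla3* lies to the left in the 3 comparisons with more HFD.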

How the data were processed

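Gene expression was read from 30 livers, 6 in each of 5 groups, with 1 Affymetrix Mouse Gene ST array each. The authors deposited log2 signals per probe set after RMA normalisation (Expression Console, version 1.4.1.46). Quantile normalisation gives all arrays like distributions, and median polish can compress large differences. Values lay between 1.24 and 13.66 over 41345 probe sets, and 0 columns were left unmapped. A linear signal is 2 to the power of the log2 value.

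Members and lists were chosen with earlier results of these data known. Other genes were named only from the lists, as those past the criteria with the smallest *P*, plus *Plin1*, *Plin3*, *Lipe*, *Mgll* and *Abhd5*, and as the genes closest to *Cidec* and *Plin2*. Genes closest to *Cidec* by *r* were named after their values were seen. For each comparison, limma (version 3.58.1 in R 4.3.3) was run on the 12 livers compared, with every probe set in the fit and in the Benjamini-Hochberg adjustment. The interaction used 24 livers. The limma and exact permutation *P* values weigh group differences against the spread between these livers. The fits were tested on simulated data. Relations were tested with 100000 shuffles within groups, in Python 3.11.15 with NumPy 2.4.6. The alternatives comprised a joint fit of the 30 livers, a trended prior, array weights, median centring, other thresholds, averaged probe sets per gene, a replicate block and leaving out each liver. The raw images and the other tissues were not analysed here.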

Additional observations from a re-analysis of the deposited data

Results flagged for a closer look

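Among 45 sets of 6 livers (9 members in 5 groups), a single liver stood far from the other 5 in 3 sets, and chance alone flags about 1 in 20 sets. *Cidea* in lean replicate 5 had a signal of 30.5, whereas the next highest lean liver had 11.8. The same liver had the highest *Fabp4* signal of the lean group, 304, and the highest summed adipocyte markers, 356, whose part in the *Cidea* value was not tested. *Fitm1* in obese replicate 1 had a signal of 212, the lowest of its group, with the next at 333. That liver also had the lowest *Cidea* and *Plin2* signals of the obese group, 8.96 and 486. *Fitm2* in formerly obese replicate 2 had a signal of 116, with the next at 73.6, and that liver also had the highest *Cidec*, *Plin4* and *G0s2* signals of its group, 153.3, 69.99 and 706.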

How the results depend on the processing

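The counts of members past the criteria kept within 1.5 times of those reported under most alternatives, with these exceptions. With an FDR of 10% in place of *P*, 1 member was left in obese vs lean, 2 in formerly obese vs obese, 2 in obese vs lean-HFD and 0 in obese vs formerly obese-HFD livers. With all 30 livers in a single fit, 1 member, *Plin2*, was past the criteria in lean-HFD vs lean livers, and *Fitm2* and *G0s2* lost their calls in obese vs lean livers. *Plin2* gained a call in formerly obese vs obese livers with array weights and with an intensity trend and robust prior. With each liver left out in turn, the counts were 4 to 6 in obese vs lean, 3 to 6 in formerly obese vs obese, 6 to 7 in obese vs lean-HFD, 6 to 7 in obese vs formerly obese-HFD and 0 to 1 in formerly obese-HFD vs formerly obese livers, the 1 being *Plin2* without formerly obese-HFD replicate 6, and 0 in the rest. The relation of *Cidec* and *Plin5* changed sign with median-centred arrays, to 0.000837, and the cause was not tested. Same-numbered livers had correlations of deviations from -0.115 to 0.127, with at most 1 pair over 0.1 in a comparison. For this reason the numbers were not taken as pairs. By another measure, 4 of 6 livers in lean-HFD vs lean correlated best with their own number, against 0 to 2 in the other comparisons. With the replicate number as a block, 1 member, *Plin2*, was past the criteria in lean-HFD vs lean livers, *Cidea* and *Fitm2* lost their calls in obese vs lean livers, and *G0s2* gained one in formerly obese vs obese livers. Probe sets near the array floor, such as *Cidea* in most livers, give compressed differences.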
